A study of Mus musculus with 4 samples.

Results

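Axon guidance ligands and receptors are the signals by which growing axons, migrating cells and blood vessels find their way. Semaphorins bind plexins, with neuropilins as co-receptors for most class 3 semaphorins, and ephrins bind Eph receptor tyrosine kinases on neighbouring cells. Netrins bind Dcc and Unc5 receptors, and Robo receptors such as Robo1 bind Slits. Many of these proteins are made by dividing neural progenitors as well as by neurons, and semaphorins and ephrins also shape vessels. The probe sets described here are all those with 1 annotated gene symbol that begins with Sema, Plxn, Efna, Efnb, Epha, Ephb, Robo or Unc5, with Slit or Ntn and a digit, or that is Nrp1, Nrp2 or Dcc. This gave 58 of 12469 probe sets, for 45 of 8236 genes. One of them, Unc50, meets the letters of the rule but is another membrane protein that belongs to none of these families, so 57 probe sets for 44 guidance genes remain, of which 25 genes encode ligands and 19 receptors. No Slit or Nrp2 probe set was among the 58, and these genes are not analysed here.

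The samples were 4 clonal lines of the mouse neural stem cell line c17.2, which was immortalised, each measured on 1 array while proliferating. Clone 42 and clone 48 carry a stably transfected Nurr1, a nuclear receptor encoded by Nr4a2, and puroB and puroD carry the empty puromycin vector. The labels match clone 42 with puroB and clone 48 with puroD for their similar rates of proliferation. Each line is 1 clone, so a difference between lines holds the difference between clones as well as that of the transfected gene, and both controls are also puromycin resistant clones, not the parent line. In such bulk RNA, fewer cells of a type and less RNA per cell cannot be told apart.

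The deposited values are MAS5 signals, 1 linear intensity per probe set and array. Median signals lay between 125.6 and 160.1 on the 4 arrays, and 15 control probe sets for the bacterial genes dap, lys, phe, thr and trp had medians between 6 and 9 and a highest value of 62.7. Nr4a2 was not higher in the clones labelled Nurr1. Its probe set 92248_at gave 320 in clone 42 and 206 in clone 48, whereas puroB gave 485 and puroD 254, and 92249_g_at gave 188 and 114 in those clones, whereas puroB gave 372 and puroD 213. The sources used here do not say whether the probes lie within the transfected sequence, so every direction below is that of the labels, and the transfected lines are called Nurr1-labelled. For actin, the 3' over 5' signal ratio, which depends on RNA integrity, was 1.68 in clone 42 and 2.41 in clone 48, whereas puroB gave 1.51 and puroD 2.0. Of 9 fixed neural stem and progenitor markers with a probe set, 5 were above the highest bacterial control on all arrays, and the 9 summed to 4899 in clone 42 and 4922 in clone 48, whereas puroB gave 5975 and puroD 6040. Nes carried most of these sums and was bright in every line (3030 to 3720), Hes1 and Notch1 were below the matched control in both pairs, and so was Fabp7, with 564.5 in clone 42 and 157 in clone 48, whereas puroB gave 1292.5 and puroD 1539. Vim and Prom1, each above the highest bacterial control on 2 arrays, were higher in both pairs. Pax6 was lower in both, and Msi1 and Hes5 had opposite directions in the pairs. Of 10 fixed neuron markers with a probe set, 4 were above that control on all arrays, and Gap43, Snap25, Syt1 and Syp were above it on none. Their summed signal was 6956 in clone 42 and 5526 in clone 48, whereas puroB gave 3461 and puroD 3413, and of these sums Tubb3 alone made up 5688 in clone 42 and 4633 in clone 48, whereas puroB gave 2703 and puroD 2704. Nefl and Nefm were higher in both pairs too, but Map2, Dcx and Gap43 were lower in both, Map2 with 45.8 in clone 42 and 4.2 in clone 48, whereas puroB gave 198 and puroD 120. For 8 fibroblast and mesenchymal markers, 5 of which were above that control on all arrays, the sums were 14890 in clone 42 and 11294 in clone 48, whereas puroB gave 5829 and puroD 7922.5. Postn and Col3a1 carried most of these sums and were higher in both pairs, whereas Lum was lower in both and Col1a1, Col1a2, Fn1, Dcn and Thy1 had opposite directions in the pairs. Of 6 microglia markers, Ptprc, Itgam and Aif1 were above that control on no array, whereas Cx3cr1, C1qb and Csf1r were above it on all arrays. The 6 summed to 596 and 484 in clone 42 and clone 48, against 641 and 554 in puroB and puroD. The 6 endothelial markers summed to 3470.5 in clone 42 and 4199 in clone 48, whereas puroB gave 4368 and puroD 4666. Eng carried most of these sums and was lower in both pairs, whereas Kdr was higher in both. The astrocyte markers, mostly S100b, summed to 1695.5 and 761 in clone 42 and clone 48, against 896 and 748.5 in puroB and puroD. Oligodendrocyte markers gave 303 and 132 in clone 42 and clone 48, against 416 and 367 in puroB and puroD. The part of RNA integrity and of these cell type markers in the results below was not tested.

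Of the guidance probe sets, 22 were bright enough to be tested, for 18 genes including Unc50; a probe set had to exceed a signal of 145.05, the median of all values, on at least 2 arrays. The other 36, which were dimmer, are described at the end. Nurr1-labelled and control clones were compared to find the transcripts that differ where Nurr1 was introduced. Sema3e, a secreted semaphorin, had the largest mean difference among the tested guidance probe sets, and the guidance receptors and the ephrins were mostly at similar or lower signals in the Nurr1-labelled clones. In limma, with the pair as a block and Benjamini-Hochberg adjustment over all 6419 tested probe sets, 0 of the 22 passed an adjusted p of 0.05 and 2 had an unadjusted p under 0.05. Over all tested probe sets 7, or 0.109%, passed, and 7.38% had an unadjusted p under 0.05, beside 9.09% of the guidance probe sets.

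**Figure D1:**
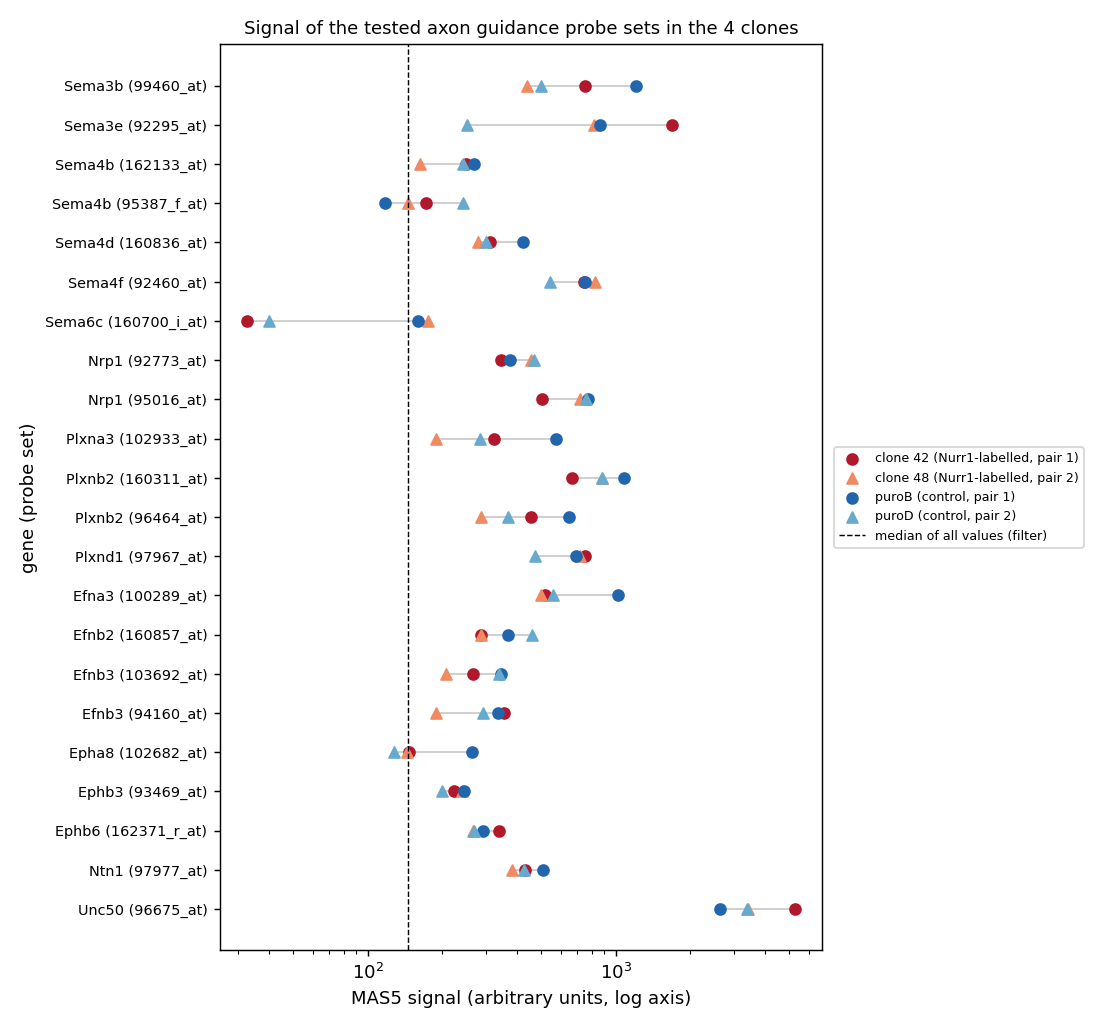
Signals of the 22 tested guidance probe sets (rows, by family) in the 4 clones, in MAS5 units on a log axis; circles are clone 42 and puroB, triangles clone 48 and puroD, red and orange the Nurr1-labelled clones and blue the controls. Sema3e spreads between 252.5 in puroD and 1687 in clone 42, and Sema6c is bright in clone 48 and puroB alone.

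Sema3e acts through plexin D1 without a neuropilin and is known for repelling growing vessels and axons. The signal of 92295_at was 1687 in clone 42 and 816 in clone 48, whereas puroB gave 866 and puroD 252.5. Within each matched pair the Nurr1-labelled clone was the brighter one, but the groups overlapped, since clone 48 lay just under puroB. The signal was 1.95-fold higher in clone 42 than in puroB and 3.23-fold higher in clone 48 than in puroD, and puroB was 3.43-fold above puroD. The mean log2 difference was 1.33 ± 0.31 (SE, n = 2 clones per group; 95% interval 0.67 to 1.98), and in limma the unadjusted p was 0.000674 and the adjusted p 0.113, rank 36 of all tested probe sets. The adjusted p was under the threshold with scaling to the median (0.0328) and with a filter on all 4 arrays (0.0148), without the pair as a block it was 1.00, and over all alternatives it ran from 0.0148 to 1.00. Leaving out clone 42 gave a log2 difference of 0.80, leaving out puroB 2.22 and leaving out puroD 0.44.

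Plxna3, a plexin that transmits class 3 semaphorin signals with a neuropilin, had the lowest mean. Its signals (102933_at) were 322 in clone 42 and 188.5 in clone 48, whereas puroB gave 577 and puroD 283. Each Nurr1-labelled clone lay below its matched control, while clone 42 was brighter than puroD, so the groups overlapped. The log2 differences were -0.84 and -0.59 in the pairs, with a mean of -0.71 ± 0.30 (SE, n = 2 per group; 95% interval -1.36 to -0.073; limma unadjusted p = 0.0315, adjusted p = 0.575). The control clones differed by more than this, puroB being 2.04-fold above puroD. Without clone 42 the difference was -1.10, without clone 48 -0.33, without puroB -0.20 and without puroD -1.23.

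Plxnd1, the receptor of Sema3e, was measured at a single probe set. It gave 750 in clone 42 and 716 in clone 48, whereas puroB gave 694.5 and puroD 472. Both Nurr1-labelled clones lay above both controls, but the log2 difference was 0.11 for clone 42 and 0.60 for clone 48 over their matches (mean 0.36 ± 0.30, SE; limma adjusted p = 0.912), and the mean was 0.077 without puroD. It was the 1 guidance probe set with this order among those tested.

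The promoters of these 3 genes are shown because they are the 2 with the lowest p and the receptor of Sema3e. The sequences are from RefSeq, build GRCm38.p6, and hold 250 bases before and 50 after the annotated gene start. Of the 44 guidance genes, 37 had a promoter in that table. Capitals mark matches on either strand to the letters AGGTCA (or its reverse TGACCT), the core bound by many nuclear receptors, and to the GC box GGGCGG (or CCGCCC). They are given 5′ to 3′ on the strand of the gene, which is plus for Sema3e at chr5:14025026-14025325 and for Plxna3 at chrX:74328816-74329115, and minus for Plxnd1 at chr6:115994956-115995255.
Sema3e: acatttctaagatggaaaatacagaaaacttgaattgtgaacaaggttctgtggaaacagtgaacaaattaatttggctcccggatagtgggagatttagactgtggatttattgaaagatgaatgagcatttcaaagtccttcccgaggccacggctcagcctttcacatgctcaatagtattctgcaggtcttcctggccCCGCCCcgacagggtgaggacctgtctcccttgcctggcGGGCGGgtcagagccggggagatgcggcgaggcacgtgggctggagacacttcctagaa
Plxna3: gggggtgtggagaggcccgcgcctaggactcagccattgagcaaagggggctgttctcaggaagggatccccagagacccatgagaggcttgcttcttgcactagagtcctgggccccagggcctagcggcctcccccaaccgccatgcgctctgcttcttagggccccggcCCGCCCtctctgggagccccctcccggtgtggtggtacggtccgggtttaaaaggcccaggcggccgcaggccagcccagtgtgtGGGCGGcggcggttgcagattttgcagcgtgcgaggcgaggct
Plxnd1: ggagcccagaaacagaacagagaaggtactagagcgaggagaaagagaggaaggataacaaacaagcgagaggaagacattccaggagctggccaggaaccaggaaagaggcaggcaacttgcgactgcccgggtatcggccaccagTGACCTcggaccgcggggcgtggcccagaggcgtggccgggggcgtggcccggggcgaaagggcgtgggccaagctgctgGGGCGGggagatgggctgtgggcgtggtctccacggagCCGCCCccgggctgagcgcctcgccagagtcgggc
The letters AGGTCA were found in the Plxnd1 window and in neither of the other windows, and each window held 2 GC boxes. Nurr1 is known to bind, as a monomer, the element AAAGGTCA, which contains AGGTCA. That element was in 0 of the 50 promoter windows of the guidance genes, where 1.51% of all 32851 windows held it. AGGTCA was in 8 of the 50, or 16%, against 16.3% of all windows, and the GC box in 37 of the 50, or 74%, against 35.7% of all. These are matches of letters in a window, and nothing was measured at the promoters.

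Among the other class 3 semaphorins, Sema3b, a secreted ligand that binds neuropilins, gave 749 in clone 42 and 438 in clone 48, whereas puroB gave 1203 and puroD 502 (99460_at). Each Nurr1-labelled clone was below its matched control, with log2 differences of -0.68 and -0.20, and puroB was 2.40-fold above puroD, so that the groups overlapped. A dimmer Sema3b probe set, 161801_r_at, gave 40.2 in clone 42 and 46.8 in clone 48, against 80.6 and 85.3 in puroB and puroD; its arrays did not overlap, but the signal in clone 42 was under the highest bacterial control of 62.7 on that array. Sema3e was therefore the 1 of 2 tested class 3 semaphorins with higher signals in both Nurr1-labelled clones than in their matches.

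Apart from Sema6c, the tested membrane-bound semaphorins differed less than 2-fold within the matched pairs. Sema4d, a ligand of B plexins, gave 312 in clone 42 and 279 in clone 48, whereas puroB gave 425 and puroD 300. Sema4f, a transmembrane semaphorin of the nervous system, gave 742 in clone 42 and 827 in clone 48, whereas puroB gave 749 and puroD 546. In both cases the groups overlapped, and the mean log2 differences of -0.27 and 0.29 were -0.023 without puroB for Sema4d and 0.064 without puroD for Sema4f. Sema4b was represented by 3 probe sets that did not behave alike. One, 162133_at, gave 248 in clone 42 and 163 in clone 48, whereas puroB gave 267.5 and puroD 242. The other tested one, 95387_f_at, whose suffix marks probes shared by a sequence family, gave 172 in clone 42 and 145 in clone 48, whereas puroB gave 117 and puroD 242, with opposite directions in the pairs (log2 0.55 and -0.74). The sign of its mean, -0.094, turned to 0.071 with scaling to the median and to 0.080 with quantile normalization. The third, 94637_at, stayed between 73.1 and 110 on all arrays.

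Sema6c, a transmembrane semaphorin, split the clones across both groups. Its probe set 160700_i_at gave 32.7 in clone 42 and 175 in clone 48, whereas puroB gave 159 and puroD 39.9. Clone 48 and puroB were bright, and clone 42 and puroD were at the floor, below the highest bacterial control on their arrays (62.7 and 59.1). Taking the dim arrays at those controls, the signal was at least 2.53-fold lower in clone 42 than in puroB and at least 2.95-fold higher in clone 48 than in puroD. The mean log2 difference was 0.068 ± 0.77 (SE; limma adjusted p = 1.00), and -0.075 without the floor. The suffix of this probe set marks that it holds fewer unique probes than usual. Of its relative Sema6b, too dim to be tested, clone 48 alone was bright, at 146, with 29.8 in clone 42, whereas puroB gave 14.7 and puroD 31.1. Both probe sets were thus brighter in clone 48 than in clone 42, and they differed in puroB.

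Nrp1, the neuropilin that binds Sema3a and also the growth factor VEGF, was bright in all lines. Its probe set 95016_at gave 505 in clone 42 and 715.5 in clone 48, whereas puroB gave 772 and puroD 762, and both Nurr1-labelled arrays lay below both controls, by 1.53-fold for clone 42 and 1.06-fold for clone 48 against their matches. The other probe set, 92773_at, gave 343 in clone 42 and 455.5 in clone 48, whereas puroB gave 376 and puroD 467, and overlapped. Its mean log2 difference of -0.085 turned to 0.080 with scaling to the median. The limma adjusted p was 0.915 and 0.995 for these probe sets, and the mean of the first, -0.35, was -0.10 without clone 42.

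Plxnb2, a plexin known from dividing cerebellar granule precursors, gave 668 in clone 42 and 880 in clone 48, whereas puroB gave 1076 and puroD 881 (160311_at). The arrays did not overlap, though clone 48 was below puroD by less than 1 unit of signal. The other Plxnb2 probe set, 96464_at, gave 456 in clone 42 and 287 in clone 48, whereas puroB gave 649 and puroD 368, with each Nurr1-labelled clone below its match. Their mean log2 differences were -0.34 ± 0.31 and -0.43 ± 0.29 (SE, n = 2 per group; limma adjusted p = 0.928 and 0.868), and they shrank to -0.15 without clone 42 and to -0.024 without puroB. Of the 4 tested plexin probe sets, 3 were therefore lower and 1, that of Plxnd1, higher in both pairs.

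All 4 tested ephrin probe sets had negative means. Efna3, a ligand held to the membrane by a lipid anchor, gave 517 in clone 42 and 499 in clone 48, whereas puroB gave 1019.5 and puroD 558. The groups did not overlap, but the difference lay mostly in the first pair, where clone 42 was 1.97-fold lower, against 1.12-fold lower for clone 48 in the other. Efnb2, a transmembrane ephrin that marks arteries and signals in both directions, gave 286 in clone 42 and 287 in clone 48, whereas puroB gave 368 and puroD 458. Here the Nurr1-labelled clones were nearly equal and both below the controls, by 1.29-fold and 1.60-fold. Efnb3, the transmembrane ephrin of the spinal cord midline, gave 265.5 in clone 42 and 206 in clone 48, whereas puroB gave 345 and puroD 339, at probe set 103692_at. Its other probe set, 94160_at, gave 354 in clone 42 and 189 in clone 48, whereas puroB gave 335.5 and puroD 292, where clone 42 was the brightest of all. The mean log2 differences were -0.57 ± 0.31 for Efna3, -0.52 ± 0.30 for Efnb2 and -0.55 ± 0.31 and -0.28 ± 0.32 for Efnb3 (SE, n = 2 per group; limma adjusted p between 0.789 and 0.968). For 94160_at the mean was 0.18 without clone 48, and for Efna3 it was -0.14 without puroB.

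Efnb1, the third transmembrane ephrin, went the other way, although it stayed under the filter. It gave 137 in clone 42 and 149 in clone 48, whereas puroB gave 83.0 and puroD 80.2 (98407_at). The clones of each group were close together and the groups did not overlap, with ratios of 1.65 and 1.86 in the pairs. All 4 signals were above the highest bacterial control of their array. It was not tested because only clone 48 exceeded the filter.

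Of the Eph receptors, 3 probe sets were tested, and none had the same direction in both pairs. Epha8 gave 147 in clone 42 and 144 in clone 48, whereas puroB gave 263 and puroD 128, so that puroB stood alone. Ephb3, a receptor of B ephrins, gave 224 in clone 42 and 241 in clone 48, whereas puroB gave 246 and puroD 199. Ephb6, whose kinase domain is inactive, gave 339 in clone 42 and 265 in clone 48, whereas puroB gave 292 and puroD 267, at probe set 162371_r_at. A dimmer Ephb6 probe set, 102871_at, gave 64.7 in clone 42 and 109 in clone 48, whereas puroB gave 180 and puroD 129, with both Nurr1-labelled clones below both controls, so the probe sets of this gene disagreed. The limma adjusted p of the 3 tested probe sets lay between 0.968 and 0.995.

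Ntn1, the secreted ligand of Dcc and Unc5 receptors, was bright and differed little. Its probe set 97977_at gave 431 in clone 42 and 381 in clone 48, whereas puroB gave 510 and puroD 426 (mean log2 difference -0.20 ± 0.29, SE; limma adjusted p = 0.977). The other Ntn1 probe set stayed between 5.9 and 12 on all arrays. Its receptors Dcc and Unc5c were dim. Dcc gave 21.2 in clone 42 and 15.9 in clone 48, whereas puroB gave 74.7 and puroD 22.1, and Unc5c gave 22.5 in clone 42 and 14.7 in clone 48, whereas puroB gave 38.9 and puroD 70.5. Robo1 was above background in puroD alone, at 77.8, with 4.7 in clone 42, 8.3 in clone 48 and 3.7 in puroB. Robo3 stayed between 38.5 and 56.8, at or near the floor. Unc50, which is in no guidance family, gave 5273 in clone 42 and 3406 in clone 48, whereas puroB gave 2638 and puroD 3403 (mean log2 difference 0.50 ± 0.34, SE; limma adjusted p = 0.873).

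**Figure D2:**
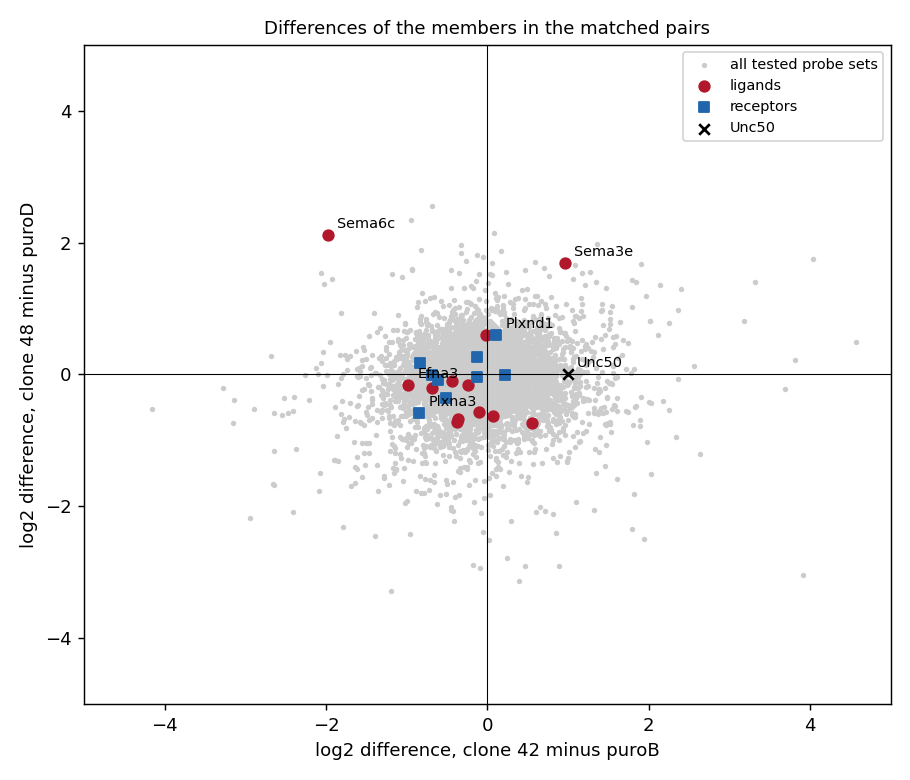
Log2 differences of the 22 tested members (12 ligand probe sets as red circles, 9 receptor probe sets as blue squares, Unc50 as a cross) and of all 6419 tested probe sets (grey), clone 42 minus puroB on the x axis and clone 48 minus puroD on the y axis. Sema3e lies at 0.96 and 1.69, and Sema6c, at -1.98 and 2.11, lies in the upper left quadrant, lower in the first pair and higher in the other.

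Of the 22 tested probe sets, 12 were below the matched control in both pairs, 3 were above it in both, and 7 had opposite directions. In shares, 54.5% were lower in both pairs, where 29.7% of all tested probe sets were, and 13.6% were higher in both, against 21.7% of all. Of the 12, 7 belonged to ligands and 5 to receptors. The median log2 difference was -0.28, against -0.038 over all tested probe sets, and it was -0.30 for clone 42 over puroB and -0.10 for clone 48 over puroD. It moved to -0.11 without clone 48 and to -0.047 without puroB. Scaling to the median moved the median of all tested probe sets to 0.13, and relative to that of all probe sets the members' median was -0.24 with either scaling, -0.17 with quantile normalization, -0.094 without clone 48 and -0.011 without puroB. Arrays of the groups did not overlap for 7 of the 22, or 31.8%, which is close to the 30.6% of all tested probe sets. Of these, 2 (Plxnd1 and Unc50) were higher, beside 12.8% of all, and 5 (Efna3, Efnb2, Efnb3, Nrp1 and Plxnb2) were lower, beside 17.9% of all.

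Differences of 2-fold or more were counted between clones of 1 group and within the matched pairs. Between puroB and puroD 6 of 22 guidance probe sets differed 2-fold or more, or 27.3%, against 6.06% of all tested probe sets. They were higher in puroB for Sema3e, Sema3b, Sema6c, Plxna3 and Epha8 and lower for Sema4b (95387_f_at). Plxna3 (2.04-fold), Epha8 (2.06-fold) and Sema4b (2.07-fold) lay just over the threshold, and Sema6c was at the floor in puroD. Sema6c, Epha8 and this Sema4b probe set were also under the filter signal on part of the arrays. The count between puroB and puroD was not repeated with other settings, so its stability is not known. In clone 42 over puroB 1 of 22 differed 2-fold or more, or 4.55%, against 8.35% of all. It was Sema6c, which was lower, as were 4.78% of all tested probe sets, and 0 were higher, beside 3.57% of all. In clone 48 over puroD 2 did, or 9.09%, against 5.39% of all. These were Sema3e and Sema6c, both higher, as were 1.67% of all, and 0 were lower, beside 3.72% of all. Between clone 42 and clone 48 2 did as well (Sema3e higher and Sema6c lower in clone 42), against 10.7% of all. These comparisons rest on 1 array per clone and have no test. For 10 of the 22, or 45.5%, the control clones differed by more than either matched pair, where 32% of all tested probe sets showed this.

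**Figure D3:**
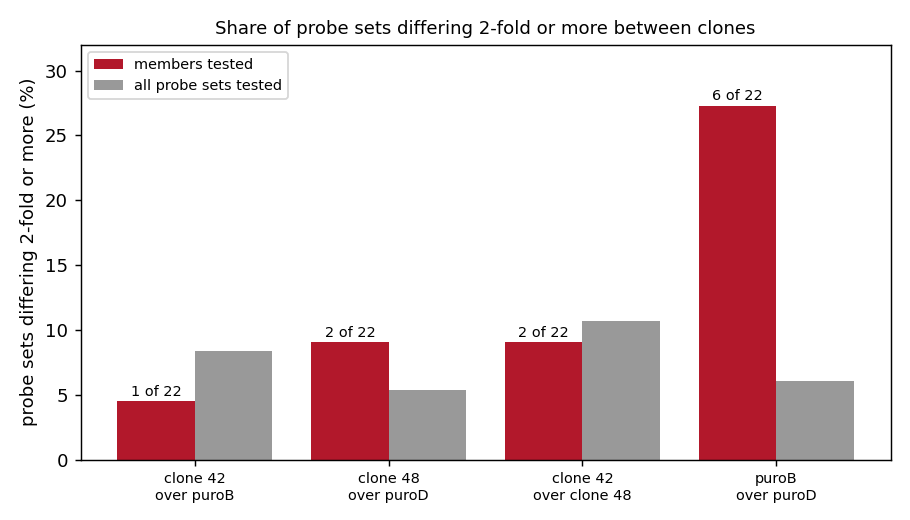
Percent of probe sets that differed 2-fold or more in either direction (y axis) in 4 comparisons of single clones, for the 22 tested guidance probe sets (red) and all 6419 tested probe sets (grey). The guidance share is 27.3% between puroB and puroD, and 4.55% and 9.09% in the matched pairs.

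Of the 36 probe sets too dim to be tested, for 27 genes with no tested probe set and for 4 genes with another one, 10 were above the highest bacterial control on all 4 arrays, 18 on some and 8 on none. Those above it on all arrays belonged to Efna2, Efnb1, Ephb6, Plxna1, Plxna2, Sema3c, Sema4a, Sema4b, Sema6d and Sema7a. Sema6d gave 108 in clone 42 and 109 in clone 48, whereas puroB gave 153 and puroD 131, so its groups did not overlap. Sema4a gave 112 in clone 42 and 121 in clone 48, whereas puroB gave 73.0 and puroD 93.9, with the Nurr1-labelled clones higher (94063_at). Its dimmer probe set, 161530_r_at, overlapped, with 30.8 in clone 42 and 60.9 in clone 48, whereas puroB gave 58.7 and puroD 57.7. Sema7a, a lipid-anchored semaphorin, gave 64.6 in clone 42 and 72.1 in clone 48, whereas puroB gave 142.5 and puroD 65.7 (93411_at). Its dimmer probe set, 97794_at, gave 46.4 in clone 42 and 61.9 in clone 48, whereas puroB gave 63.6 and puroD 37.4. Plxna1 gave 147 in clone 42 and 80.0 in clone 48, whereas puroB gave 121.5 and puroD 78.3, and Plxna2 gave 113 in clone 42 and 81.9 in clone 48, whereas puroB gave 126 and puroD 113, and these plexins overlapped between groups. Efna2 stayed between 54.2 and 84.9, Sema3c between 52.6 and 103, Sema3f between 34.3 and 80.1 and Sema5a between 9.6 and 42.7. Sema5b gave 106 in puroB and 35.2 to 48.8 in the other clones. Efna1, Efna4, Efna5 and Sema6a, and one probe set each of Epha5 and Ntn1, were at the floor on every array.

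Sema3a, the classical repellent of sensory and cortical axons, stood out in 1 clone. Its probe set 98835_at gave 321 in clone 42 and 47.6 in clone 48, whereas puroB gave 20.0 and puroD 45.8. The signal in clone 42 was at least 6.44-fold above that of puroB, taken at the highest bacterial control on its array (49.8), and 6.74-fold above clone 48. Clone 48 lay just above the highest bacterial control of its array and both controls lay below theirs, and the probe set did not pass the filter, because clone 42 alone exceeded it. Sema3a and Sema3e were both brightest in clone 42.

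Of the 10 Eph receptor probe sets that were not tested, 5 had both Nurr1-labelled clones below both controls: those of Epha3, Epha5, Epha6 and Ephb6 (102871_at) and one of Epha4. The share of all untested probe sets with this order was not computed, so it is not known whether 5 of 10 is unusual. With no filter on dim probe sets, the arrays did not overlap in either direction for 17 of all 58 guidance probe sets, beside 23.1% of all probe sets. Epha3, a receptor of A ephrins, gave 18.3 in clone 42 and 11.4 in clone 48, whereas puroB gave 54.4 and puroD 43.7. Epha4, which binds both classes of ephrin, gave 39.0 in clone 42 and 53.1 in clone 48, whereas puroB gave 73.0 and puroD 87.1 at 104673_at, but 59.4 in clone 42 and 20.2 in clone 48, and 56.6 in puroB and 12.8 in puroD, at 161866_at. Epha6 gave 64.0 in clone 42 and 14.6 in clone 48, whereas puroB gave 88.6 and puroD 84.1, and the brighter Epha5 probe set gave 43.7 in clone 42 and 23.9 in clone 48, whereas puroB gave 57.1 and puroD 60.2. Apart from Ephb6, part of these signals lay under the highest bacterial control, among them that of Epha3 in puroD, so their order and size are uncertain and no test was made. Epha2 was above it in puroD alone (95.9), and Epha7 gave 70.2 in clone 48 and at most 52.7 in the other clones.

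**Figure D4:**
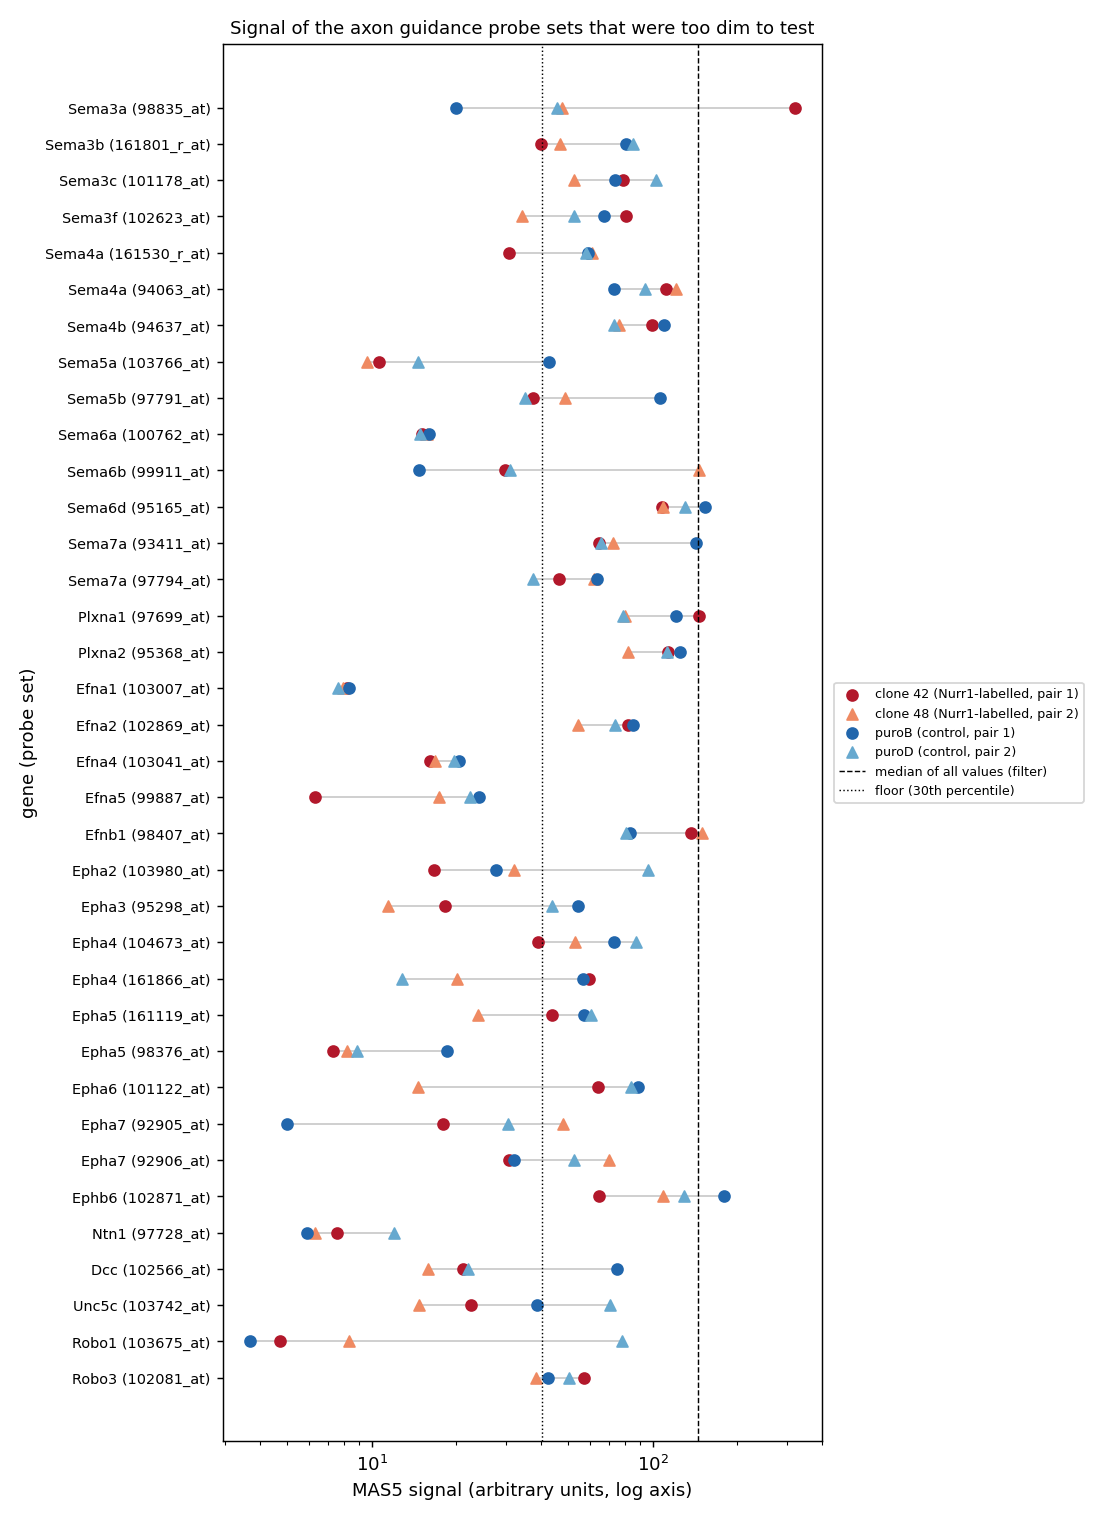
Signals of the 36 guidance probe sets that did not pass the filter (rows, by family), in MAS5 units on a log axis, with the floor of 40.3 dotted and the filter of 145.05 dashed; circles are clone 42 and puroB, triangles clone 48 and puroD, red and orange the Nurr1-labelled clones and blue the controls. Sema3a in clone 42 (321) stands far to the right of its other clones, and the controls lie to the right of the Nurr1-labelled clones for Epha3 and Epha6.

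Other genes of guidance signalling were taken from a list of 100: cytoplasmic partners, co-receptors and other cues. Of these 63 had a probe set and 40 were tested, each at its brightest probe set. None passed, so 0 were called higher and 0 lower, with 1 at an unadjusted p under 0.05, or 2.5%, beside 7.38% of all tested probe sets. In both pairs 10 were higher and 10 lower, or 25% each, beside 21.7% and 29.7% of all, and the median log2 difference was -0.11. The 3 with the highest means were Gpc1, a cell surface proteoglycan that binds Slits, at 0.66 (limma unadjusted p = 0.0476, adjusted p = 0.663), the calcineurin subunit Ppp3ca at 0.58 and Crmp1, a mediator of Sema3a signals, at 0.54. Among the 3 with the lowest were Shh, a secreted morphogen that also guides commissural axons, at -0.85 and Neo1, the netrin receptor related to Dcc, at -0.46.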

How the data were processed

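Total RNA of 4 clones was measured on Affymetrix arrays, 1 per clone. The deposited values are linear intensities, 1 signal per probe set; MAS5 is named per the submitters' processing notes, without its version or scaling target, and no detection calls were used. The arrays had trimmed means of 500.4 to 500.5.

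Each array was rescaled to a trimmed mean (2% off each end) of 500, and a floor of 40.3, the 30th percentile over all values, replaced lower signals before log2 was taken. Tested were probe sets over the median of all values (145.05) on at least 2 arrays, without the 66 array controls, which left 6419. Symbols came from the platform annotation (10814 probe sets with 1 symbol, 396 with several, 1193 with none) and were checked by Entrez ID against RefSeq; 0 changed. The test was limma 3.58.1 (R 4.3.3), with the pair as a block and an intensity trend, and Benjamini-Hochberg adjustment. It was tried on simulated data, where the planted differences were larger than any mean of the tested guidance probe sets. Effects of the size seen here were not simulated. Intervals use limma's moderated SE. The pairing is that of the labels; as a check, the arrays of a pair deviated from their group means with a correlation of 0.19 across probe sets. With the pair as a block, a level shared by both clones of a pair is removed. The spread behind the p-values is then the mismatch between pairs in their log2 difference, not the whole spread between clones. Each clone has 1 array, so this spread may be partly technical. With 1 residual degree of freedom and 13.1 prior ones, the spread is mostly that of all probe sets, and the number of arrays limits the precision.

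Named with all signals were the genes with a tested probe set, the dim ones by range or where they stood out, which was decided with their values known; of the partners, the 3 highest and 3 lowest, of which 1 is not reported here. The members and lists were chosen with earlier results of these data known. Alternatives were tried in scaling, floor, filter, block and trend, and each clone was left out in turn.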

Additional observations from a re-analysis of the deposited data

Results flagged for a closer look

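The Sema6c probe set 160700_i_at had opposite differences in the matched pairs, each larger than 2-fold: log2 -1.98 for clone 42 minus puroB and 2.11 for clone 48 minus puroD. Clone 42 and puroD were at the floor, so both sizes depend on it. The difference between the pairs was not tested, because each clone has 1 array, and its cause was not tested.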

How the results depend on the processing

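The count of guidance probe sets that passed in limma was 0, and 1 with scaling to the median and with a filter on all 4 arrays, in both cases Sema3e. Over all probe sets the count of 7 was less stable: 41 with scaling to the median, 17 with a floor at the median of all values and 49 with a filter on all 4 arrays, but 0 without the replicate block, with quantile normalization, with no floor and with no filter (287, 375, 473 and 560 at an unadjusted p under 0.05), and between 0 and 51 when 1 clone was left out. The fit without the replicate block (pair) changed no guidance call; the cause of these shifts was not tested. The members' median log2 difference of -0.28 was -0.11 with scaling to the median, -0.17 with quantile normalization, and lay between -0.37 and -0.047 with 1 clone left out. At 2-fold or more, clone 42 and puroB differed for 1 probe set, for 2 with scaling to the median, 0 with a floor at the median or a filter on all 4 arrays, and 6 with no filter. Clone 48 and puroD differed for 2, for 1 with scaling to the median, quantile normalization, a floor at the median or a filter on all 4 arrays, and 5 with no filter. Groups that did not overlap numbered 7 of 22, beside 30.6% of all, and 17 of 58 with no filter, beside 23.1% of all. With 1 clone left out, where a lone array overlaps less often, they numbered 11 to 17 of 22, beside 61% to 69.3% of all. Signs turned for Sema6c with no floor (-0.075), for Nrp1 (92773_at) with scaling to the median (0.080) and for Sema4b (95387_f_at) with scaling to the median (0.071) and quantile normalization (0.080). With 1 clone left out, the log2 difference ranged from -0.86 to 0.19 for Epha8, -0.99 to 1.13 for Sema6c, -0.076 to 0.28 for Ephb6, -0.29 to 0.12 for Nrp1 (92773_at), -0.082 to 0.22 for Ephb3, -0.73 to 0.18 for Efnb3 (94160_at), -0.62 to 0.43 for Sema4b (95387_f_at) and -1.07 to 0.19 for Sema3b. A floor at the highest bacterial control, chosen after seeing the data, called 0 guidance probe sets and 8 in all. Signals near the floor have no order.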
